A study of Mus musculus with 3 samples.

Results

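The H3K27ac peaks described here are those whose centre the deposited annotation places in an exon or a 5' UTR of a RefSeq gene on chromosomes 1 to 19 of the mouse. They number 1145 of the 17450 H3K27ac peaks on these chromosomes (6.56%), with 708 in the exon class (61.8%) and 437 in the 5' UTR class. Another 13 such peaks lay on chromosomes X and Y and were left out. H3K27ac was mapped by chromatin immunoprecipitation with sequencing (ChIP-seq) in beige adipocytes, thermogenic fat cells obtained here by differentiating the stromal vascular fraction of inguinal white fat (C57BL/6 mice) in culture. The 3 libraries of these cells are 1 each of input DNA, Foxp4 ChIP and H3K27ac ChIP, with no replicate and no undifferentiated or unstimulated group among them. Cells were grown for 3 days with 20% fetal bovine serum, then induced for 48 h with 10% serum, 5 µg/ml insulin, 0.5 mM IBMX, 1 µM dexamethasone, 50 nM T3 and 5 µM troglitazone. They were then kept for 6 days with insulin, T3 and troglitazone. All libraries share this treatment, and the protocol in the labels names only an antibody against Foxp4, also for the H3K27ac library.

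Acetylation of histone H3 at lysine 27 marks active promoters and enhancers. At an active promoter the start site itself is depleted of nucleosomes, and the acetylated nucleosomes stand on both sides, so the downstream flank falls in the first exon or the start of the first intron. The 5' UTR is the transcribed stretch before the start codon. Acetylation far inside a gene can mark an internal promoter or an enhancer within the gene body.

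Each peak carries the authors' deposited score, a whole number of at least 20, used here only to rank peaks within the H3K27ac list. Sequencing depth is unknown, and in a bulk library a higher score from more cells carrying the mark cannot be told apart from more mark per cell. Intervals are exact Clopper-Pearson 95% intervals unless stated otherwise and cover counting error only, and p-values describe the lists and not the variation between cultures. The labelled cell type was checked by peaks assigned to marker genes. For comparison, 37.7% of the 20665 protein-coding genes had an H3K27ac peak of any class, and no marker count was tested against this share. Of 10 adipocyte markers, 9 had at least 1 H3K27ac peak and Adipoq had none. Of 8 brown and beige markers, Ppargc1a, Elovl3, Cox8b and Ebf2 had a peak, and Ucp1, Cidea, Prdm16 and Dio2 had none. Among markers of other cells, peaks were assigned to 5 of 7 stromal progenitor genes, 4 of 4 mural, 3 of 4 endothelial, 2 of 5 macrophage and 0 of 5 skeletal muscle genes. The part of such cells in the results was not tested. Of all these markers only Ly6a, a stromal progenitor surface antigen, had an exon or 5' UTR peak.

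Sequence upstream of the start site is shown for 8 of the genes named further on, because their peaks extend over it, with at least 1 example each of 6 motifs. Each line holds 30 bases of the gene's own strand, 5' to 3', from the RefSeq promoter sequences of GRCm38.p6, with the bases that match a motif in capitals, and every stretch shown lies inside the gene's H3K27ac peak. The 2 stretches of Pcbp1 and the stretch of Hdac7 also lie inside a Foxp4 peak.
Pcbp1, ETS motif: gcgcggaaagcaCTTCCGgggtcagagggt
Pcbp1, E-box: gggttaacaaaaCACGTGctccctctcaat
Hipk3, GC box: gagcggccgagcGGGCGGtggcgctgcgga
Brd2, GC box: atgggatgttttGGGCGGgcgaggggaggg
Hdac7, forkhead core: ccctggcttgtgTAAACAtggatgcacgcc
Lrrc59, ETS motif: tctcagtggccgCGGAAGgtgacgtggaca
Strn3, GC box: gcgcccgagttgGGGCGGggcccaggcctt
Vim, TATA box: tcctaacagtgtTATAAAagcagcgccctt
Foxo1, CCAAT box: cttcgcgcgtccATTGGccgcgcagcctgt

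The stretches of Pcbp1 lie at chr6:86526213-86526242 and chr6:86526389-86526418 on the minus strand, with the last matched base 36 and 212 bases upstream of the start. Those of Hipk3 (chr2:104494493-104494522), Brd2 (chr17:34121826-34121855), Hdac7 (chr15:97831860-97831889) and Strn3 (chr12:51692112-51692141) are also on the minus strand. Those of Lrrc59 (chr11:94629743-94629772), Vim (chr2:13574267-13574296) and Foxo1 (chr3:52268302-52268331) are on the plus strand. The TATA box of Vim begins 32 bases before the start, and the ETS motif of Lrrc59 begins 22 bases before it. A match is a run of letters and does not show that a factor binds there.

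Both classes lay mainly just downstream of a transcription start site (TSS), and the 5' UTR peaks lay closer to it. The median distance of the peak centre was 254 bp downstream for the 5' UTR class (quartiles 161 and 404) and 449 bp for the exon class (quartiles 281 and 1134). Within 1000 bp of a TSS lay 423 of the 437 5' UTR peaks (96.8%, interval 94.7 to 98.2) and 485 of the 708 exon peaks (68.5%, interval 64.9 to 71.9). Of the 8010 intron peaks 28.4% did so. No exon or 5' UTR peak had its centre 1 to 100 bp downstream, because the promoter-TSS class of the annotation takes precedence there, so this gap is set by the annotation. The peaks often ran back over the start: 254 of the 5' UTR peaks (58.1%) and 162 of the exon peaks (22.9%) covered the annotated TSS, beside 55.3% of the 2950 promoter-TSS peaks and 6.45% of the intron peaks. Relative to the length of each class in the genome, the log2 of observed over expected peaks in the authors' deposited table was 4.925 for 5' UTRs, 3.954 for promoters, 1.778 for exons, 0.405 for introns and -1.166 for intergenic sequence. Its exon row counts 753 peaks on all chromosomes, 40 more than the 713 rows labelled as exon.

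**Figure D1:**
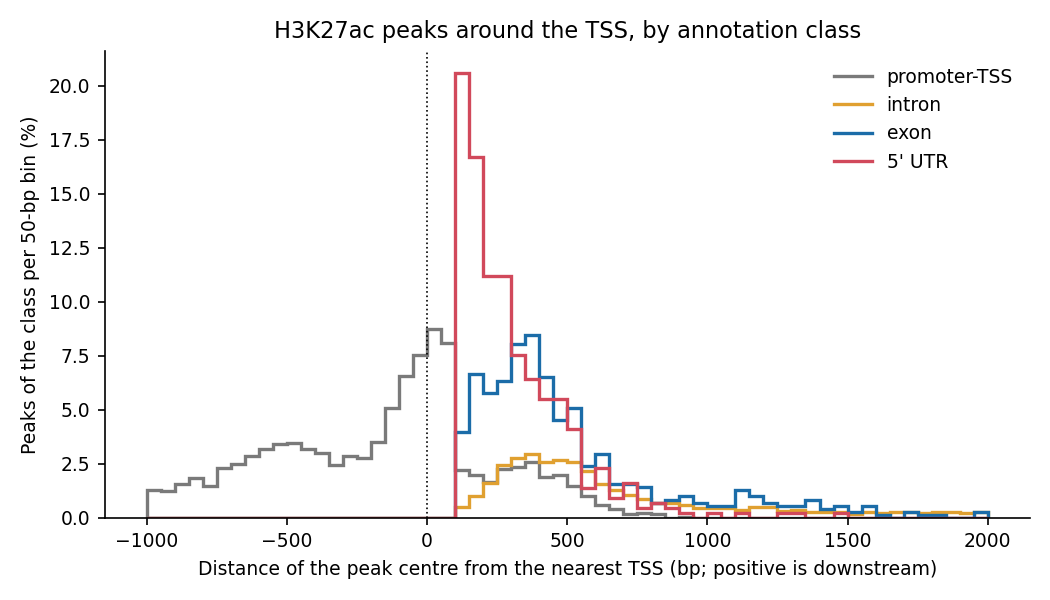
Share of each annotation class per 50-bp bin of the distance between the H3K27ac peak centre and the nearest TSS. The 5' UTR class has its highest bin at 100 to 150 bp (20.6% of the class) and the exon class at 350 to 400 bp (8.47%), and the empty stretch of both below 100 bp is set by the annotation.

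First exons held most of these peaks. Exon 1 was the exon named in the annotation for 407 of the 437 5' UTR peaks (93.1%) and 453 of the 708 exon peaks (64.0%). Exon 2 held 139 peaks of both classes together and later exons 146. Peaks in later exons were lower and narrower: the median score was 53 in exon 1, 43 in exon 2 and 39 from exon 3 on, and the median width 662, 545 and 434.5 bp. The last exon of a transcript with several exons held 58 peaks. A transcript of 1 exon held 67 peaks, and there a peak in the gene body cannot be of the intron class of that transcript, since no intron exists.

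The 10 highest-scoring 5' UTR peaks scored between 164 and 239. The highest, with a score of 239 and a width of 3310 bp, was at Pcbp1, which encodes a poly(C)-binding RNA-binding protein in a single exon (chr6:86524318-86527627). Hipk3, a homeodomain-interacting protein kinase, followed with 199 (chr2:104493109-104494934), and Kmt5b, a histone H4 methyltransferase, with 195 in its second exon (chr19:3767328-3768726). Letm2 scored 181 with a width of only 492 bp, the narrowest of the 10. Pnrc1, a nuclear receptor coactivator, scored 180. Brd2, a bromodomain protein that reads acetylated histones, scored 170 over 3700 bp, and Hdac7, a class IIa histone deacetylase, scored 167 over 1437 bp. The kinase Taok1 scored 169, Lrrc59, a protein of the endoplasmic reticulum membrane, 165, and the RNA helicase Ddx17 164. Apart from the Kmt5b peak all of these lay in exon 1, with centres 150 to 606 bp downstream of the start when Kmt5b is included.

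The 10 highest exon peaks scored between 130 and 171. Cavin3, a coat protein of caveolae, the membrane pits that are abundant in fat cells, led with 171 over 2823 bp (chr7:105480486-105483308). Strn3, a regulatory subunit of protein phosphatase complexes, scored 146 (chr12:51690885-51692325), and Hint1, a nucleotide hydrolase, scored 141 with its centre 117 bp from the start. The Midn peak scored 140, was 3874 bp wide and had its centre in exon 4 of 9, 2032 bp downstream (chr10:80149778-80153651). Midn encodes midnolin, which takes nuclear proteins to the proteasome. Chic2 scored 136 and Acot2, a mitochondrial acyl-CoA thioesterase, 134. The RNA-binding ubiquitin ligase Mex3c and Irf2bpl both scored 133, the kinase Dmpk 132 and the RNA 3' end processing factor Cstf2t 130. Of the 10 all but Midn had the peak centre in exon 1, which for Irf2bpl and Cstf2t is the only exon.

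**Figure D2:**
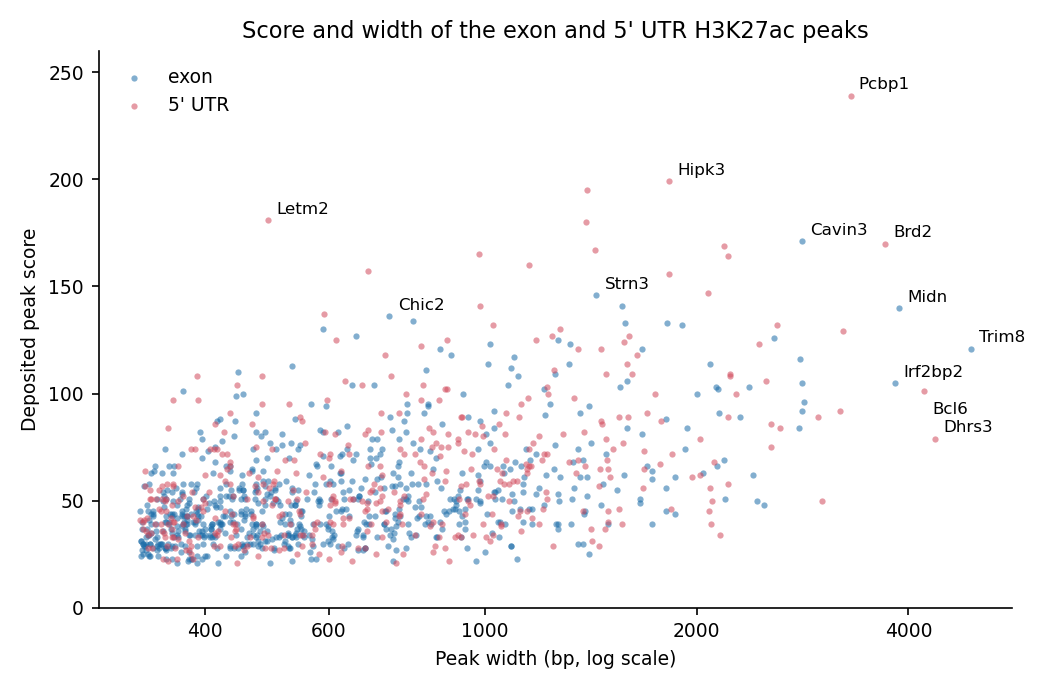
Deposited score against width (log scale) of the 708 exon and 437 5' UTR H3K27ac peaks, each point 1 peak, with some genes named in the text labelled. Pcbp1 stands highest at 239 and Trim8 is the widest at 4905 bp, while Letm2 joins a score of 181 to a width of 492 bp.

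Wider peaks tended to have higher scores. Over the 1145 peaks Spearman's rho of score and width was 0.45, and Pearson's r of their log2 values 0.49. Both values come from 1 peak list and are a description. The 5 widest peaks were at Trim8 (4905 bp, score 121), Dhrs3 (4364 bp, score 79), Bcl6 (4204 bp), Midn (3874 bp) and Irf2bp2 (3827 bp, score 105). Trim8 encodes a ubiquitin ligase, Dhrs3 a retinaldehyde reductase, Bcl6 a zinc finger repressor and Irf2bp2 a corepressor. The Irf2bp2 peak had its centre in the last exon of 2, 1972 bp from the start. Bcl6 had a second 5' UTR peak of 3201 bp and score 92 at the first exon of another transcript, so the starts of both transcripts were covered by wide peaks.

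A gene seldom had more than 1 such peak. Of the 1104 protein-coding genes with at least 1 exon or 5' UTR peak (5.34% of 20665), 1067 had 1, 35 had 2, and Lox and Tsc22d2 had 3. Lox, the enzyme that cross-links collagen and elastin, had peaks in exon 1 (score 103, 1556 bp), exon 4 (score 57) and exon 6 of 7 (score 43). In Tsc22d2 all 3 peaks lay in exon 1, with scores of 54, 37 and 36 at 343, 1273 and 2118 bp from the start. Amotl1 had a 5' UTR peak of score 97 and an exon 4 peak of score 40, 39634 bp from the start. The single exon of Jund, an AP-1 factor, held a 5' UTR peak of score 27 and a peak of score 92 centred 2093 bp downstream.

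A smaller set lay deep inside genes. In all, 104 of the 1145 peaks had their centre in exon 2 or later and more than 5000 bp from any TSS, 22 of them in the last exon, and they fell in 102 genes. They were low and narrow, with a median score of 37 and a median width of 429 bp. Intron peaks more than 5000 bp downstream of a TSS were alike, with medians of 37 and 461 bp. The highest exon number among them was 86, in Adgrv1, an adhesion receptor with 90 exons, which was singled out after its values were seen. Among the peaks of this set in the last exon of a transcript with 3 or more exons, the highest scores belonged to Adamtsl4 (74, exon 18 of 18, chr3:95675923-95677847), Slc18a1 (74, exon 17 of 17), Bad (61, exon 4 of 4), Cyp2s1 (58, exon 9 of 9) and Ccdc92b (51, exon 4 of 4). Adamtsl4 is a secreted matrix protein, Slc18a1 a vesicular monoamine transporter and Bad a member of the BCL2 family. The nearest TSS of the Slc18a1 peak was that of Atp6v1b2, 49839 bp away, and that of the Ccdc92b peak was that of Cluh, 11330 bp away. Across all 1140 peaks whose transcript was found in the RefSeq table, the nearest TSS was that of another gene for 62 (5.44%), of which 58 were exon peaks, and 6 lay within 1000 bp of that other start.

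To compare strength by class, the share of peaks above the median score of the list (40) was taken. It was 66.2% of the exon and 5' UTR peaks (758 of 1145, interval 63.4 to 68.9), 67.1% of the promoter-TSS peaks and 46.0% of the intron peaks. The difference from the promoter-TSS peaks was -0.85 points (Newcombe interval -4.10 to 2.33, adjusted exact p = 0.660 by a two-sided Fisher's exact test, as in all comparisons of shares here, with Benjamini-Hochberg adjustment over 12 tests). Within 1000 bp of a TSS it was 5.20 points (adjusted exact p = 0.0345). The difference from the intron peaks was 20.2 points (interval 17.2 to 23.1, adjusted exact p = 9.8e-37). Among peaks over 100 and up to 1000 bp downstream of a TSS, called the downstream window from here on, 72.2% of the 908 exon and 5' UTR peaks and 67.5% of 2278 intron peaks were above the median, a difference of 4.78 points (interval 1.23 to 8.20, adjusted exact p = 0.0148). With 1 peak per gene and class it was 1.29 points (adjusted exact p = 0.609).

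The 5' UTR peaks were more often high and more often wide than the exon peaks. Above the list median score were 73.2% of the 5' UTR peaks (interval 68.8 to 77.3) and 61.9% of the exon peaks (interval 58.2 to 65.5), an exon minus 5' UTR difference of -11.4 points (interval -16.7 to -5.78, adjusted exact p = 0.000205). Wider than the list median of 530 bp were 66.1% and 52.7%, a difference of -13.4 points (interval -19.1 to -7.61, adjusted exact p = 3.6e-05). Among peaks within 1000 bp of a TSS these differences were -3.27 points for score (adjusted exact p = 0.511) and -6.87 points for width (adjusted exact p = 0.099), and neither passed the threshold of 0.05. The median score of the 5' UTR peaks was 59 up to 250 bp from the start, 54 from there to 500 bp and 48.5 from there to 1000 bp. For the exon peaks these medians were 52, 51 and 50, and they were 40 between 1000 and 5000 bp and 37 beyond. The median width up to 250 bp from the start was 843 bp for 5' UTR peaks and 671 bp for exon peaks, and between 500 and 1000 bp it was 835 and 768 bp. The 5' UTR median was also the larger between 250 and 500 bp.

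**Figure D3:**
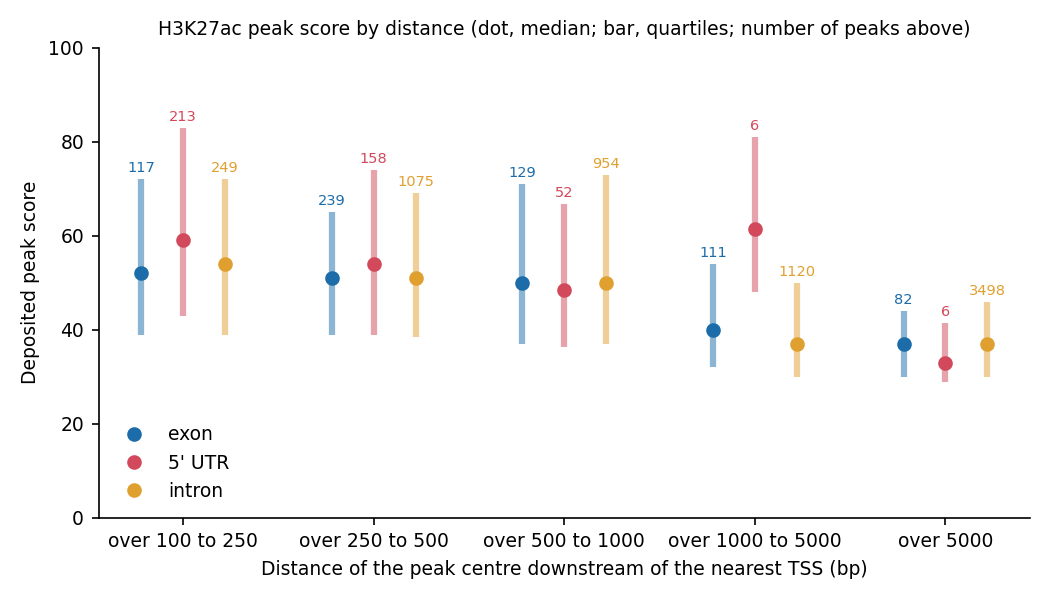
Median (dot) and quartiles (bar) of the deposited H3K27ac score by distance downstream of the nearest TSS for the exon, 5' UTR and intron classes, with the number of peaks above each bar. All 3 medians lie between 48.5 and 59 up to 1000 bp, and the exon and intron medians are 40 and 37 between 1000 and 5000 bp and 37 in both beyond 5000 bp; the 5' UTR class has 6 peaks in each of the last bins.

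Exon and 5' UTR peaks together were less often wide than promoter-TSS peaks (57.8% against 65.0%, difference -7.20 points, interval -10.5 to -3.88, adjusted exact p = 6.2e-05), but within 1000 bp of a TSS the difference was -2.02 points (adjusted exact p = 0.511). They were more often wide than intron peaks (10.7 points, interval 7.59 to 13.7, adjusted exact p = 8.9e-11). In the downstream window the shares were 63.0% and 63.2% (difference -0.174 points, interval -3.92 to 3.50, adjusted exact p = 0.935), and among the higher-scoring 50% of the list the difference at all distances was 3.17 points (adjusted exact p = 0.148).

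For 98 of the 908 exon and 5' UTR peaks in the downstream window (10.8%), the same gene had a separate peak centred up to 1000 bp upstream of a TSS. Peaks were matched by the gene of their nearest TSS, so a pair could stand at different starts of that gene. Of the 810 without such a peak, 395 themselves spanned the TSS, among them 239 of 382 5' UTR peaks and 156 of 428 exon peaks. Of the 485 exon peaks in the downstream window, 57 (11.8%, interval 9.02 to 15.0) had such an upstream peak of the same gene. So had 41 of 423 5' UTR peaks (9.69%, interval 7.05 to 12.9) and 317 of 2278 intron peaks (13.9%). Where a gene had several upstream peaks, the highest-scoring one was taken. In the 98 pairs of exon or 5' UTR peaks the downstream peak had the higher score in 56, the upstream peak in 41, and 1 pair was equal. The median scores were 50.5 downstream and 45 upstream.

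The sequence just upstream of these genes was GC-rich. For 686 of the 908 peaks in the window (75.6%) a RefSeq promoter entry had its start within 50 bp of the one that the deposited distance implies, and its 250 bases before the start were searched. They comprise 361 starts of exon peaks and 325 of 5' UTR peaks. The median GC content was 62.4% for exon peaks and 62.0% for 5' UTR peaks, beside 62.4% for intron peaks of the same window, 63.2% for promoter-TSS peaks and 56.0% for all 20085 promoter entries of protein-coding genes. The median ratio of observed to expected CpG was 0.784, 0.770, 0.775, 0.810 and 0.547 in the same order. All of the acetylated sets lay above the median of all promoters on both measures.

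The motifs were searched on both strands, and they can overlap one another (a GC box and an ETS match share bases at some starts). The GC box GGGCGG, bound by Sp1 and its relatives, was found at 67.9% of the starts of exon peaks, 60.0% of those of 5' UTR peaks, 69.9% of those of intron peaks in the downstream window, 64.7% of those of promoter-TSS peaks and 43.4% of all promoters. In the same order the ETS motif CGGAAG was found at 27.1%, 27.1%, 26.0%, 30.7% and 17.5%, and the TATA box TATAAA at 7.48%, 5.54%, 5.38%, 4.64% and 11.7%. The forkhead core TAAACA, of the family to which Foxp4 belongs, was found at 5.26% of the starts of exon peaks (19 of 361, interval 3.20 to 8.10), 10.5% of those of 5' UTR peaks (34 of 325, interval 7.35 to 14.3), 6.18% of those of intron peaks, 5.00% of those of promoter-TSS peaks and 10.5% of all promoters. At starts whose exon or 5' UTR peak overlapped a Foxp4 peak it was found in 5 of 71 (7.04%, interval 2.33 to 15.7). The cAMP response element TGACGTCA stood at 13 of 361 starts of exon peaks (3.60%, interval 1.93 to 6.08), 2 of 325 of 5' UTR peaks (0.615%, interval 0.0746 to 2.21), 2.89% of those of intron peaks, 2.57% of those of promoter-TSS peaks and 1.98% of all promoters. The YY1 motif AAGATGGC stood at 4 of the 686 starts (0.583%), beside 1.33% for intron peaks, 2.88% for promoter-TSS peaks and 1.51% of all promoters. The CCAAT box CCAAT was at 33.2% of the 686 starts, 36.1% of those of intron peaks, 30.6% of those of promoter-TSS peaks and 35.3% of all promoters. In that order the E-box CACGTG was at 8.60%, 9.77%, 9.28% and 6.69%, and the Nrf1 motif GCATGCGC at 5.98%, 5.03%, 4.86% and 2.95%.

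Foxp4, the forkhead transcription factor mapped in the other ChIP library, overlapped peaks of both classes. A Foxp4 peak overlapped 116 of the 1145 exon and 5' UTR peaks by at least 1 bp (10.1%, interval 8.44 to 12.03), among them 68 exon peaks (9.60%) and 48 5' UTR peaks (11.0%). The difference between the classes was -1.38 points (interval -5.20 to 2.15, adjusted exact p = 0.577), an interval that allows several points in either direction. The promoter-TSS peaks overlapped in 12.3% of cases, and the difference from them was -2.17 points (interval -4.21 to 0.0256, adjusted exact p = 0.0867). With the centre of the H3K27ac peak required inside a Foxp4 peak that difference was -2.31 points and passed (adjusted exact p = 0.00453). In the downstream window 10.1% of the exon and 5' UTR peaks and 10.0% of 620 promoter-TSS peaks overlapped by at least 1 bp, which was not tested. The intron peaks overlapped in 6.93% of cases, 3.20 points fewer (interval 1.49 to 5.16, adjusted exact p = 0.000413). This call was lost when the centre was required (0.560 points, adjusted exact p = 0.392), among the 50% of peaks with higher scores (2.21 points, adjusted exact p = 0.139) and in the downstream window, where 10.1% and 9.13% overlapped (1.00 points, interval -1.19 to 3.41, adjusted exact p = 0.511). The call was kept with 1 peak per gene and class (2.13 points, adjusted exact p = 0.0472) and in the middle 50% of widths (2.855 points, adjusted exact p = 0.0205). It was also kept without Foxp4 peaks of the recurrent scores named below (2.44 points, adjusted exact p = 0.000849).

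**Figure D4:**
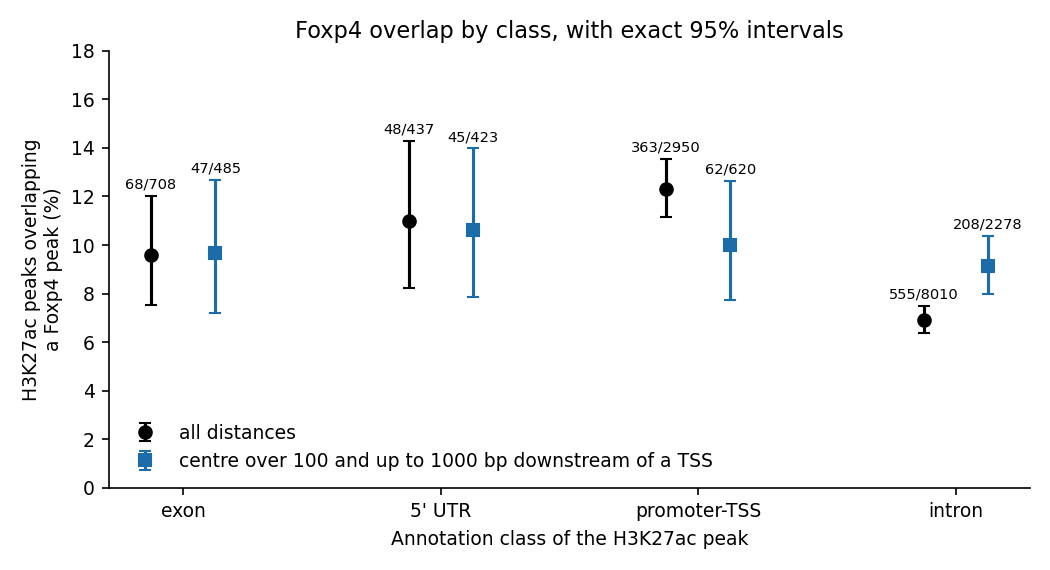
Share of H3K27ac peaks that overlap a Foxp4 peak, by annotation class, with exact 95% intervals and the counts, at all distances (circles) and for peaks centred over 100 and up to 1000 bp downstream of a TSS (squares). The intron share is 6.93% over all distances and 9.13% in the window, where the intervals of all 4 classes overlap.

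The 116 peaks with Foxp4 had a median score of 61.5 and a median width of 829 bp, beside 50 and 581 bp for the other 1029, and this difference was not tested. They met 120 Foxp4 peaks, 50 of which the annotation placed in the promoter-TSS class, 26 in exons, 20 in introns, 18 in 5' UTRs, 4 in 3' UTRs and 2 at transcription end sites. The centres of the paired peaks lay a median of 308 bp apart, and 35 of the Foxp4 centres lay upstream of their nearest TSS and 85 downstream. Of the 120 Foxp4 peaks 35.8% carried 1 of the 6 scores that recur very often in the Foxp4 list (21, 27, 34, 41, 49 and 57), beside 73.1% of all Foxp4 peaks. In the other direction, the Foxp4 list held 410 exon and 5' UTR peaks of its own, and 73 of them (17.8%) overlapped an H3K27ac peak of any class. The same share over all Foxp4 peaks was not computed, so this value stands without a background.

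Among the strongest Foxp4 peaks at these sites were those at Ptges2, Ccdc92b, Rsbn1l and Midn, with Foxp4 scores of 71, 55, 53 and 52. At Ptges2, a prostaglandin E synthase, the Foxp4 peak (chr2:32395815-32396539) lay inside the H3K27ac peak of score 72 (chr2:32395200-32397046), with the centres 54 bp apart. At Pcbp1 a Foxp4 peak of score 48 (chr6:86526103-86526556) covered both upstream stretches shown above. At Hdac7 a Foxp4 peak of score 34 (chr15:97831529-97831944) covered the forkhead core shown above, and a second Foxp4 peak of score 27 lay 699.5 bp on the other side of the H3K27ac centre. Both of these scores are among those that recur very often in the Foxp4 list. Forkhead cores were also found upstream of Col3a1, Pde4b and Cdkn1b, whose exon or 5' UTR peaks overlapped no Foxp4 peak. Foxo1 had Foxp4 peaks of scores 34 and 24, neither of which covered the stretch shown.

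By gene, 1104 of 20665 protein-coding genes on chromosomes 1 to 19 had an exon or 5' UTR H3K27ac peak, which is the background of 5.34% for the gene lists. Exon peaks were found in 686 genes (3.32%) and 5' UTR peaks in 434 (2.1%), with 16 genes in both. Among the 7832 genes with an H3K27ac peak of any class the background was 14.1%. Of 36 lists 25 lay above the first background and 22 above the second. Peaks in lists are described by their counts, and no list was tested. The lists hold chosen genes of each kind and are not complete families, so counts and highest scores apply within a list.

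The forkhead, TGF beta and immediate early lists had the highest shares, also among genes with an H3K27ac peak of any class, where they were 46.7, 36.4 and 33.3% beside the 14.1% of all such genes. The forkhead list had 7 of 23 genes (30.4%): Foxo1 (score 109), a target of insulin signalling, Foxk2 (79), Foxk1 (74), Foxp4 itself (39), Foxn2 (34), Foxc1 (33) and Foxc2 (26). The Foxp4 peak of H3K27ac was in the 5' UTR of its exon 1 (chr17:47924231-47924669) and no Foxp4 ChIP peak overlapped it. The TGF beta and BMP list had 8 of 27 genes (29.6%), with the receptors Tgfbr2 (102) and Acvr2a (50), the signal carriers Smad2 (74) and Smad3 (46), the inhibitors Smad7 (61), Smad6 (22) and Ski (39) and the ligand Tgfb3 (34). All 8 were in exon 1, 4 in each class. The immediate early and AP-1 list had 8 of 28 genes (28.6%): Jund (92), Junb (60), Maf (51), Zfp36 (48), Zfp36l1 (45), Ier5l (45), Jun (40) and Zfp36l2 (29). In 5 of these 8 the peak was in a transcript of 1 exon, as for 67 of all 1145 peaks (5.85%), so their class is in part set by the gene's structure. The same holds for 2 of the 7 forkhead genes, Foxc1 and Foxc2.

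Lists of hormone signalling and response lay between 6.67 and 24.0%. The beta adrenergic and cAMP list had 6 of 25 genes (24.0%, or 31.6% of those with any peak), 5 of them in a 5' UTR. They were the coactivator Crtc3 (65), the protein kinase A regulatory subunits Prkar2b (50) and Prkar2a (31), the phosphodiesterase Pde4b (41), the anchoring protein Akap12 (36) and the adenylyl cyclase Adcy5 (28). The glucocorticoid response list had 4 of 17 genes (23.5%): Nfkbia (77), Angptl4 (59), Cebpd (56) and Mt2 (37), all in exons. The insulin signalling list had 6 of 28 (21.4%), among them Foxo1, Rptor (74), Gsk3a (51), the receptor Insr (45) and Irs2 (40). The nuclear receptor list had 2 of 30 (6.67%, or 9.52% of those with any peak), Nr1h3 (104), the liver X receptor alpha gene, and Nr2f6 (51).

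The lists of the fat cell programme lay between 4.35 and 17.4%. Of 24 adipogenic transcription factors 20 had an H3K27ac peak of any class, and Foxo1, Nr1h3 and Cebpd had one in an exon or 5' UTR (12.5%, or 15.0% of those with any peak, near the 14.1% of all genes with any peak). The lipid droplet and lipolysis list had 4 of 23 (17.4%, or 22.2% of those with any peak): Cav1 (89), the lipase Mgll (81), the droplet coat gene Plin4 (65) with a second peak of score 39 in its last exon, and the lipase inhibitor G0s2 (29). Lipogenesis had 2 of 20 (10.0%, or 12.5% of those with any peak), Dgat1 (91) and Scd1 (37). Fatty acid oxidation had 3 of 23 (13.0%, or 17.6% of those with any peak), Acot2 (134), Eci2 (75) and Acsl5 (63). Of the 23 thermogenic and beige fat genes 1 had such a peak (4.35%, or 8.33% of those with any peak), Atp2a2 (66), which encodes the calcium pump of the endoplasmic reticulum.

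Housekeeping lists lay on both sides of the background of genes with any peak (14.1%). The oxidative phosphorylation list had 4 of 51 genes (7.84%, or 10.3% of those with any peak), all in exons, with Cyc1 highest in the list at 66. The ATP synthase gene Atp5mpl, which the list does not hold, had a 5' UTR peak of score 82. The list of cytosolic ribosomal proteins had 4 of 50 (11.8% of those with any peak), with Rpl8 highest in the list at 64. Rpl21 and Rpl29, which the list does not hold, had 5' UTR peaks of scores 89 and 44. Translation factors had 4 of 28 (14.3%, or 16.0% of those with any peak), with Eif4h highest at 69. Chaperones and the unfolded protein response had 4 of 30 (13.3%, or 16.7% of those with any peak), with Hsph1 at 77. The tricarboxylic acid cycle list had 0 of 23, although 18 of its genes had an H3K27ac peak of another class. Of the lists of other cell types, the endothelial, neuronal, skeletal muscle and mural lists had 0 of 17, 17, 20 and 15 genes, the macrophage list 1 of 20 (Cd14, 45) and the hepatocyte list 1 of 19 (Apoa2, 45), beside the background of 5.34%. In the same order only 7, 2, 4, 8, 5 and 5 of their genes had an H3K27ac peak of any class. Among those the macrophage and hepatocyte shares were each 20.0%, from 1 gene, beside 14.1%.

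**Figure D5:**
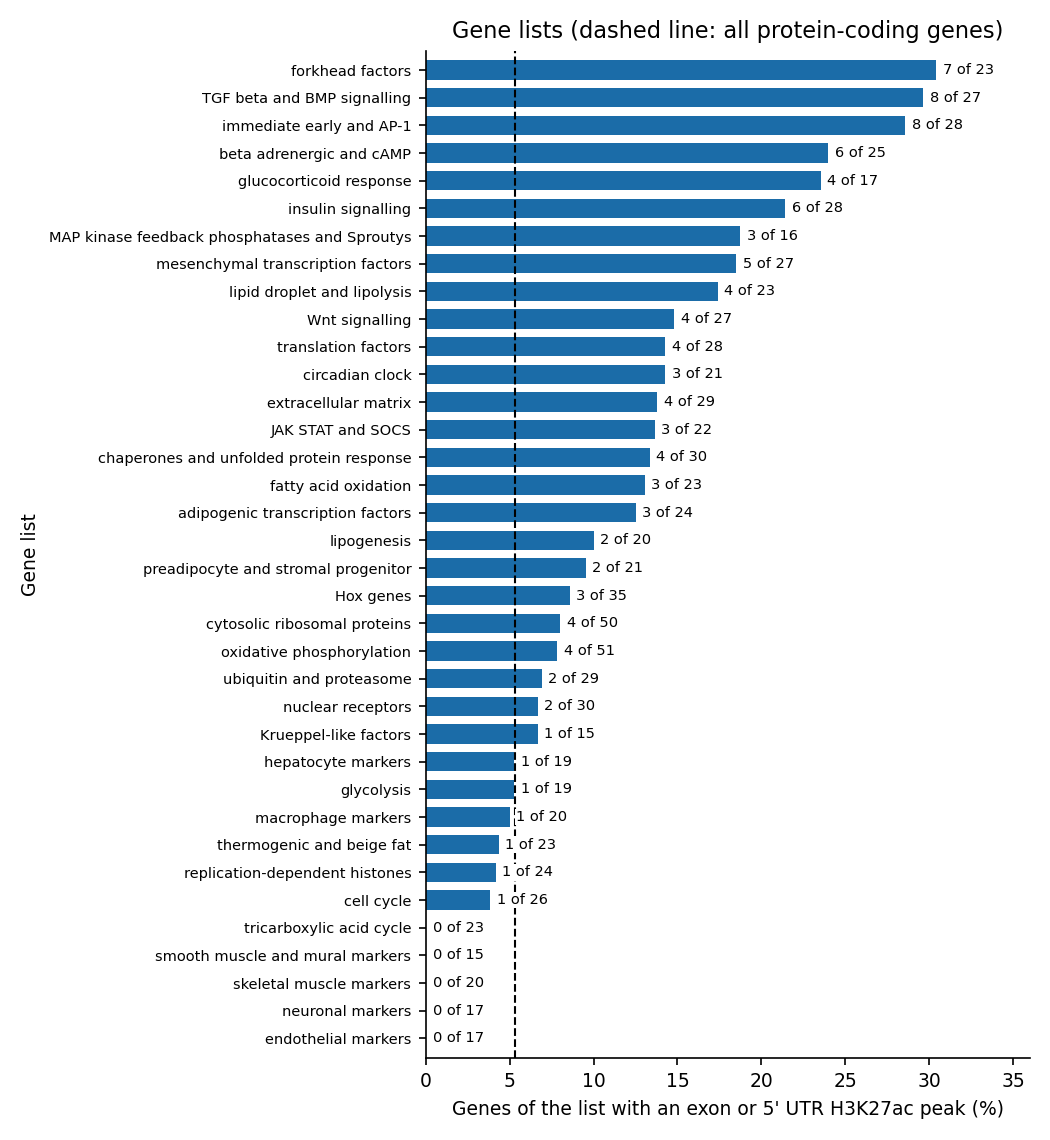
Share of the genes of each of 36 lists with an exon or 5' UTR H3K27ac peak, with the counts beside the bars and a dashed line at the 5.34% of all protein-coding genes. Forkhead, TGF beta and BMP, and immediate early genes stand highest at 30.4, 29.6 and 28.6%, and 5 lists have none.

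Some matrix genes had peaks in later exons. The extracellular matrix list had 4 of 29 genes (13.8%), but 8 peaks in them, all in exons. Among its genes with any peak the share was 16.0%, near the 14.1% of all genes with any peak. Besides the 3 of Lox these were a peak of 2493 bp and score 48 in exon 24 of 51 of Col1a1 (chr11:94942390-94944882), another of score 39 in its exon 42, a peak of score 43 in exon 30 of 51 of Col3a1, and peaks in exon 1 of Col3a1 (61) and Col1a2 (49). These 3 collagen genes encode chains of the fibrillar collagens. The mesenchymal transcription factors had 5 of 27 genes (18.5%, or 23.8% of those with any peak): Sox4 (92), Runx2 (84), En1 (64), Twist1 (59) and Tbx15 (48), all with their highest peak in exon 1. Vim, which encodes the intermediate filament protein vimentin and stands in the progenitor list, had an exon 1 peak of score 121 that covered the TATA box shown above. Ly6a had a peak of score 81 over 1673 bp in exon 3 of 4.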

How the data were processed

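Peak lists of 1 H3K27ac and 1 Foxp4 ChIP library were used, and the input library was left aside. The submitters' processing notes name mm10 as the build and MACS2, Bowtie2, SAMtools, Picard and deepTools (3.3.0) as tools, and give no settings. Per the file headers, each deposited list was annotated with HOMER on mm10, which gave the class of the peak centre, the nearest RefSeq TSS and the distance to it. The score column is the authors' own, and the sources used here give neither its scale, nor the peak threshold, nor how the input was used. Depth is unknown, since a peak list keeps no read numbers, so scores were compared only within a list.

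A peak's gene was that of its annotated transcript, or of the nearest TSS where the RefSeq table of GRCm38.p6 held no such transcript. Overlap with Foxp4 meant at least 1 shared bp. Shares were compared by 12 two-sided Fisher's exact tests with Benjamini-Hochberg adjustment and a threshold of 0.05. The steps were tested on simulated data. Named peaks were the 10 highest of each class, the 5 widest, the 5 with the highest Foxp4 score, the 5 highest in single-exon genes and in far last exons, the 5 genes with the most peaks, and up to 4 genes per list, with predicted genes and microRNAs passed over. Further list genes, their second peaks, related genes outside a list and the sequence stretches shown were picked after their values were seen. Some peaks that the rule names are not reported here. Members and the 36 gene lists (907 entries, 15 not found on chromosomes 1 to 19) were chosen with earlier results of these data known. Alternatives changed the peaks per gene, score, width, overlap rule, recurrent Foxp4 scores, distance and gene assignment. Software was scipy 1.17.1, pandas 2.3.3, numpy 2.4.6 and matplotlib 3.10.9.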

Additional observations from a re-analysis of the deposited data

How the results depend on the processing

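Of 56 alternatives tried for the 13 results, 40 kept the direction and the side of the threshold, 9 lost the call, 1 gained it and 6 changed sign. Those against introns within 1000 bp of a TSS compare the same peaks as the main results of the downstream window. They repeat those results and are not separate checks. Differences in percentage points, with the exon and 5' UTR peaks (or the exon peaks) first, are given here, and the cause of a change was not tested. Within 1000 bp of a TSS the calls ended for Foxp4 overlap against introns (1.00), score of exon against 5' UTR peaks (-3.27), width against promoter-TSS peaks (-2.02) and width of exon against 5' UTR peaks (-6.87). There the score against promoter-TSS peaks turned to 5.20 and the width against introns to -0.174. In the higher-scoring 50% of the list the calls ended for Foxp4 overlap (2.21) and width (3.17) against introns, and the Foxp4 overlap in the window over 100 and up to 1000 bp downstream turned to -0.127. The score in that window lost its call with 1 peak per gene and class (1.29) and at the upper quartile of score (2.26). In the middle 50% of widths the Foxp4 overlap of exon against 5' UTR peaks turned to 0.223 and the score against promoter-TSS peaks to 2.05. At the upper quartile of width the width in that window turned to 1.62. With the centre of the H3K27ac peak inside a Foxp4 peak the difference from promoter-TSS peaks passed (-2.31) and that from introns did not (0.560). The count of genes, 1104, stayed within 1.5 times under the 3 alternatives tried for it. With 1 library of each kind no variation between cultures can be seen.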
